A study of Mus musculus with 3 samples.

Results

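Serglycin, encoded by Srgn, is the core protein of an intracellular proteoglycan, a protein that carries long sulfated sugar chains (glycosaminoglycans). Blood-derived cells pack it into secretory granules and vesicles, where the negatively charged chains hold proteases, chemokines and other basic proteins until release. It is best known from mast cells, neutrophils, platelets, cytotoxic lymphocytes and macrophages, and endothelial cells also make and secrete it. The levels of Srgn are described here across cell classes of the mouse liver before and after local injury. Srgn is 1 of 19091 genes in the deposited counts. It was chosen by its own level in counts per 1000000 (CPM) of unique molecular identifiers (UMIs, tags that mark single captured transcripts) and its share of barcodes with a UMI in these libraries, so these values are a description and carry no test.

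Cells of adult livers of the strain C57BL/6 according to the labels, and C57BL/6J where the study names its wild-type mice, were profiled in 3 libraries by Drop-seq, a method that pairs each cell with a barcoded bead in a droplet. The control library came from the uninjured equivalent of the wound area, 1 day after sham surgery according to the labels. The other libraries came from livers taken 1 day (day 1) and 7 days (day 7) after irreversible electroporation (IRE), in which electric pulses destroy the cells of a bounded region. IRE was given as 8 pulses of 50 ms at intervals of 1 s and, according to the labels, 75 V, while the study's methods give a lower voltage and do not mention a sham operation. Tissue was taken with a punch of 4 mm, and according to the methods the livers of 3 mice were pooled for each library. The exact age and the sex of the mice are not given in the sources used here. With 1 library per condition no test across animals was possible. Intervals are at 95% throughout and describe counting error alone.

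The protein region that gives serglycin its name is a run of alternating serine and glycine, on whose serines the sugar chains are built. It is shown because it sets serglycin apart from the other proteoglycans described below. In the GRCm38 genome with the GENCODE annotation, the run lies on the minus strand of chromosome 10, in exon 3 of 3 of transcript Srgn-201, within the coding sequence, at chr10:62494989-62495066. The serine and glycine codons are in capitals and the flanking codons in lower case, 5′ to 3′.
Srgn: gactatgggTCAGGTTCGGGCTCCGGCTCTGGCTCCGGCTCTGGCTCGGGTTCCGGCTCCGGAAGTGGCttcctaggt
The capitals spell 10 serine-glycine pairs, codons 90 to 109 of 152. The same coding sequence is found in all 3 complete coding transcripts of the gene. Among 21760 genes with a complete coding transcript, Srgn is the single gene with an uninterrupted run of at least 10 pairs, and 10 genes (0.046%) have a run of at least 4. The counts do not tell the transcripts of Srgn apart.

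The control library held 10386 barcodes with at least 200 detected genes, the day 1 library 9253 and the day 7 library 5624, and these were kept as cells. Their totals were 8013800, 6107866 and 3058967 UMIs, with medians of 595, 509 and 456.5 UMIs per barcode. The day 7 library stood apart, since mitochondrial transcripts took 4.10% of its UMIs against 20.5% in control and 21.7% on day 1. Hepatocyte secretory transcripts took 4.46% of the UMIs on day 1, 0.313% in control and 0.0653% on day 7. Of the kept barcode sequences, 235 occurred in more than 1 library, and leaving them out changed the ratio of Srgn on day 7 to control from 17.3 to 17.2.

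Srgn was close to its control level on day 1 and far higher on day 7. It made up 510 CPM in control (interval 494 to 526), from 4084 UMIs. On day 1 it made up 490 CPM (473 to 508), from 2994 UMIs. On day 7 it made up 8816 CPM (8712 to 8922), from 26969 UMIs, so that 0.882% of all UMIs in these barcodes were Srgn. The ratio to control was 0.962 on day 1 (0.917 to 1.01) and 17.3 on day 7 (16.7 to 17.9). Of the 10227 genes with at least 50 UMIs in control and day 7 together, 8.79% were at least 2-fold higher on day 7 and 21.8% at least 2-fold lower, and 49 genes had a larger ratio than Srgn. On day 1, 12.2% of 11357 genes were at least 2-fold higher and 5.86% at least 2-fold lower, and Srgn was in neither group. The median ratio of all genes was 1.03 on day 1 and 0.866 on day 7.

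A Srgn UMI was found in 27.1% of control barcodes (26.2 to 28.0%), in 23.1% on day 1 (22.2 to 23.9%) and in 87.3% on day 7 (86.4 to 88.1%). With each barcode thinned to 300 UMIs, which leaves out 209, 298 and 545 shallower barcodes, these shares were 14.2%, 13.3% and 80.0%. The mean number of Srgn UMIs per barcode was 0.393 in control, 0.324 on day 1 and 4.80 on day 7. Single barcodes held up to 15 Srgn UMIs in control and on day 1, and up to 41 on day 7.

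Barcodes were then gated by marker genes, with Srgn in none of the lists. A barcode took the class with the most detected markers when it had at least 2 of them and at least 1 more than for any other class, and was called hepatocyte-like when at least 20% of its UMIs were hepatocyte secretory transcripts. All other barcodes stayed unassigned. They made up 31.5% of control barcodes, 27.2% on day 1 and 26.8% on day 7. A class enters the order of levels and the ratios to control only where each library compared held at least 20 of its barcodes, and smaller classes are named with their number of barcodes. The ending -like marks that the classes were rebuilt from markers and may differ from those of the study. The names were checked with genes outside the gates. S100a8, S100a9, G0s2 and Hdc were all over 2-fold higher in neutrophil-like barcodes than in the rest of each library, and C1qa, C1qb, C1qc, Emr1 and Slc40a1 were so in Kupffer cell-like barcodes. The monocyte-like name was weakest on day 7, where 1 of 3 such genes, Lyz2, passed 2-fold. No such genes were set for the Arg1 and Ccl2 macrophage, Gpnmb and Trem2 macrophage, mature dendritic cell, type 2 conventional dendritic cell, large-vessel endothelial cell and cholangiocyte-like classes, whose names rest on the gate alone.

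In control livers, neutrophil-like barcodes had the highest level of Srgn among the classes with at least 20 barcodes, with 1887 CPM (1671 to 2124) in 213 barcodes. Neutrophils are granulated white blood cells that enter damaged tissue early. Macrophage-like barcodes with Arg1 and Ccl2 followed with 1775 CPM (1376 to 2254) in 43 barcodes, and mature dendritic cell-like barcodes, which carry Ccr7 and Ccl22, with 1513 (1152 to 1952) in 47. Among these 3 classes, neighbours in the order did not differ beyond counting error. The ratio of the first to the second was 1.06 (0.812 to 1.41) and that of the second to the third 1.17 (0.814 to 1.69). The 9 basophil or mast cell-like barcodes, too few for the order, held 2340 CPM (1280 to 3927, from 14 UMIs).

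Monocyte-like barcodes came next in control with 746 CPM (695 to 799) in 1593 barcodes, 2.03-fold below mature dendritic cell-like barcodes (1.53 to 2.65). A group of classes with 458 to 577 CPM then followed, in which no neighbours differed beyond counting error. Only neighbours were compared, so classes further apart in this group may differ. Its members were type 1 conventional dendritic cell-like (577), T cell-like (577), B cell-like (546), type 2 conventional dendritic cell-like (542), unassigned (532), natural killer cell-like (509), plasmacytoid dendritic cell-like (491) and sinusoidal endothelial cell-like barcodes (458). Lower levels were found in Gpnmb and Trem2 macrophage-like barcodes, with 361 CPM (320 to 405), and in Kupffer cell-like barcodes, with 347 (318 to 379). These did not differ beyond counting error.

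The lowest control levels were in classes that are not known for serglycin. Mesenchymal cell-like barcodes held 129 CPM (100 to 164) and cholangiocyte-like barcodes, the epithelium of the bile ducts, 77.5 (21.1 to 198, from 4 UMIs). Mesenchymal, cholangiocyte and hepatocyte-like barcodes together held 122 CPM (95.2 to 153). Against these, Srgn was 15.5-fold higher in neutrophil-like barcodes (11.9 to 20.4), 6.13-fold higher in monocyte-like barcodes (4.81 to 7.91), 4.74-fold higher in T cell-like barcodes (3.60 to 6.29), 3.76-fold higher in sinusoidal endothelial cell-like barcodes (2.92 to 4.90) and 2.85-fold higher in Kupffer cell-like barcodes (2.23 to 3.70). Thinned to 300 UMIs, 40.9% of neutrophil-like barcodes and 3.85% of mesenchymal cell-like barcodes had a Srgn UMI, while the shares without thinning were 59.6% at a median of 620 UMIs and 10.6% at a median of 846 UMIs. The mesenchymal cell-like barcodes were thus the deeper of these classes and had the lower share.

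**Figure D1:**
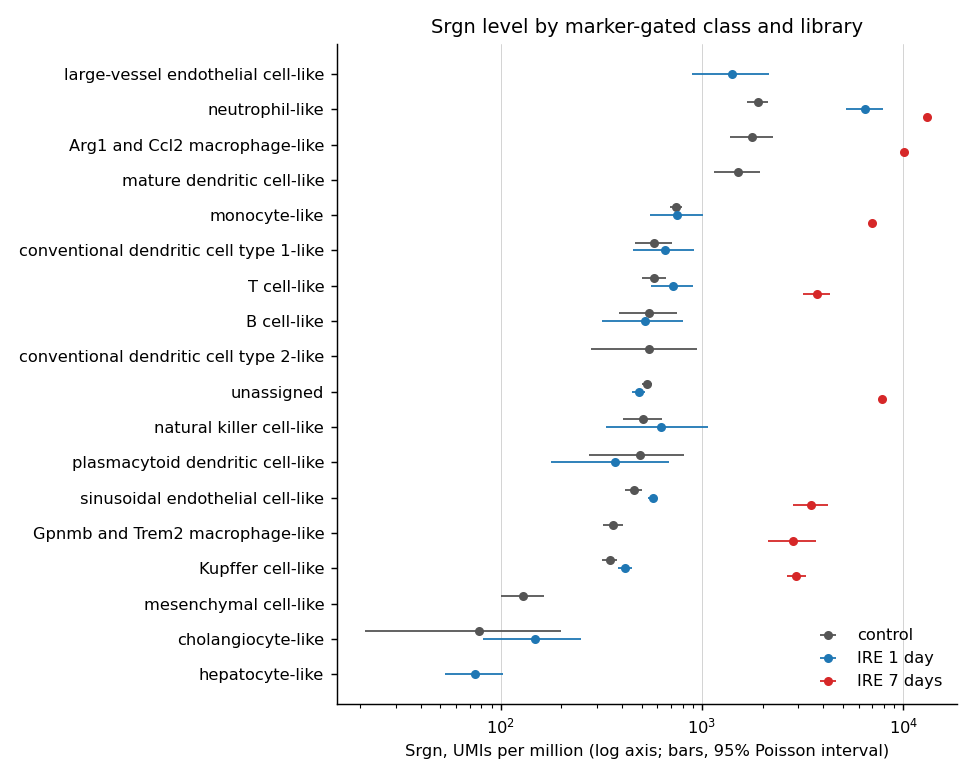
Srgn in CPM (horizontal log axis) in each marker-gated class with at least 20 barcodes, in control (grey), day 1 (blue) and day 7 (red) after IRE, with 95% Poisson intervals for counting error. The points of day 7 lie between 2822 and 13195 and to the right of the control points of their classes, while most points of day 1 overlap those of control.

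On day 1 neutrophil-like barcodes were again at the top of the classes with at least 20 barcodes, 4.57-fold above the next (2.84 to 7.66). The 12 Arg1 and Ccl2 macrophage-like barcodes, too few for the order, held 8519 CPM (6485 to 10988, from 59 UMIs). The neutrophil-like barcodes numbered 23 and held 6466 CPM of Srgn (5193 to 7957, from 89 UMIs), 3.43-fold more than in control (2.67 to 4.37). With every deposited barcode the ratio was 2.37, the lowest value of the alternatives. Large-vessel endothelial cell-like barcodes, which numbered 27 and carry Vwf and Selp, came second with 1415 CPM (887 to 2142), and were too few in control for a comparison. Sinusoidal endothelial cell-like barcodes held 567 CPM (536 to 600) in 3590 barcodes, 1.24-fold the control level (1.11 to 1.39). Kupffer cell-like barcodes held 415 CPM (384 to 448) in 2298 barcodes, 1.20-fold the control level (1.06 to 1.35). Both ratios turned below 1, to 0.939 and 0.923, when Srgn was reduced in proportion to S100a8. S100a8 is a neutrophil transcript used further on as a measure of free RNA. The amount followed the ratio of Srgn to S100a8 in barcodes under 200 genes, 1.12 on day 1 and 0.118 in control. With the ratio in all kept barcodes, 1.705 and 0.279, the class ratios were 0.993 and 1.19. Neutrophil-like barcodes on day 1 had 0.218, so the step took off more Srgn per S100a8 than they held. It therefore cannot separate free neutrophil RNA from the Srgn of other cells.

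In the other gated classes that could be compared on day 1, the interval of the ratio to control included 1. The ratio was 1.01 in monocyte-like barcodes (0.730 to 1.36), 1.24 in T cell-like barcodes (0.930 to 1.63), 1.23 in natural killer cell-like barcodes (0.629 to 2.22), 0.955 in B cell-like barcodes (0.528 to 1.68), 1.14 in type 1 conventional dendritic cell-like barcodes (0.744 to 1.70), 0.756 in plasmacytoid dendritic cell-like barcodes (0.304 to 1.80) and 1.92 in cholangiocyte-like barcodes (0.602 to 7.999). In unassigned barcodes Srgn was lower than in control, with a ratio of 0.908 (0.824 to 0.999). The intervals of the gated classes are wide enough that a change of the size seen in the endothelium was not detectable at this depth in any of them. Hepatocyte-like barcodes numbered 186 and had the lowest level, 74.3 CPM (52.6 to 102).

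On day 7 Srgn was higher than in control in each of the 7 gated classes that could be compared. Neutrophil-like barcodes remained highest with 13195 CPM (12924 to 13470) in 1377 barcodes. Arg1 and Ccl2 macrophage-like barcodes, whose marker genes encode arginase and a monocyte attractant, held 10056 (9794 to 10324) in 978 barcodes, and monocyte-like barcodes 6983 (6804 to 7165) in 1366 barcodes. The unassigned barcodes stood between these with 7827 CPM (7628 to 8030). Each of these steps was larger than counting error, with 1.31-fold (1.27 to 1.36) between the first and the second class.

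The other classes on day 7 held less Srgn, and neighbours among them did not differ beyond counting error. T cell-like barcodes held 3719 CPM (3175 to 4330) in 92 barcodes, sinusoidal endothelial cell-like barcodes 3472 (2819 to 4231) in 52, Kupffer cell-like barcodes 2947 (2646 to 3273) in 159 and Gpnmb and Trem2 macrophage-like barcodes 2822 (2126 to 3673) in 34. Monocyte-like barcodes were 1.88-fold above the first of these (1.61 to 2.20).

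Relative to control, the level on day 7 was 6.99-fold in neutrophil-like barcodes (6.20 to 7.91), 9.37-fold in monocyte-like barcodes (8.69 to 10.1) and 5.67-fold in Arg1 and Ccl2 macrophage-like barcodes (4.45 to 7.32). It was 8.49-fold in Kupffer cell-like barcodes (7.39 to 9.75), 7.82-fold in Gpnmb and Trem2 macrophage-like barcodes (5.75 to 10.5), 7.58-fold in sinusoidal endothelial cell-like barcodes (6.02 to 9.47) and 6.45-fold in T cell-like barcodes (5.22 to 7.96). These ratios lay between 5.67 and 9.37. In unassigned barcodes the ratio was 14.7 (13.8 to 15.7).

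The mix of classes also differed between the libraries. Neutrophil-like, monocyte-like and Arg1 and Ccl2 macrophage-like barcodes together made up 17.8% of control barcodes, 1.49% on day 1, when the last of these classes numbered 12, and 66.2% on day 7. They held 27.9% of the Srgn UMIs in control, 6.45% on day 1 and 75.4% on day 7. Neutrophil-like barcodes alone held 6.76% of the Srgn UMIs in control, 2.97% on day 1 and 33.5% on day 7. On day 1 the largest share lay in sinusoidal endothelial cell-like barcodes with 40.8%, followed by Kupffer cell-like barcodes with 21.6%.

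To set the level within classes apart from the mix, the levels at each time were weighted by the shares of UMIs that the classes have in control. Free RNA, taken up further on, was not subtracted from these levels, and its part in the weighted ratios was not tested. On day 7 the weighted ratio was 10.2 (9.72 to 10.6), over 8 classes, the unassigned barcodes included, that hold 86.1% of the control UMIs. Over the 7 gated classes alone the weighted ratio was 8.14 (7.65 to 8.67). Control levels weighted by the class shares of day 7 gave a ratio of 2.09. On day 1 the weighted ratio was 1.24 (1.14 to 1.34), over 11 classes with 81.8% of the control UMIs, and the mix alone gave 0.826. Over the 10 gated classes alone the weighted ratio was 1.39 (1.26 to 1.54). The weighted ratio on day 1 depended on the gate, since it was 1.07 (0.979 to 1.17) when at least 3 markers and a lead of 2 were required, and it was 1.10 (0.991 to 1.22) in barcodes with at least 500 genes.

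The number of Srgn UMIs per barcode shows how far the classes overlapped. Of neutrophil-like barcodes, 40.4% had no Srgn UMI in control, 13.04% on day 1 and 4.58% on day 7. At least 10 Srgn UMIs were found in none of these 213 barcodes in control, which allows a share of up to 1.41%, in 13.04% on day 1 and in 22.9% on day 7. Among monocyte-like barcodes, 65.4% had none in control and 13.3% on day 7, and 11.6% had 10 or more on day 7. Among T cell-like barcodes, 67.9% had none in control and 32.6% on day 7, and among sinusoidal endothelial cell-like barcodes 76.6% and 34.6%. Thinned to 300 UMIs, the share of barcodes with a Srgn UMI on day 7 was 92.0% in neutrophil-like, 84.8% in Arg1 and Ccl2 macrophage-like, 75.2% in monocyte-like, 57.7% in Kupffer cell-like, 56.2% in T cell-like and 54.9% in sinusoidal endothelial cell-like barcodes.

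**Figure D2:**
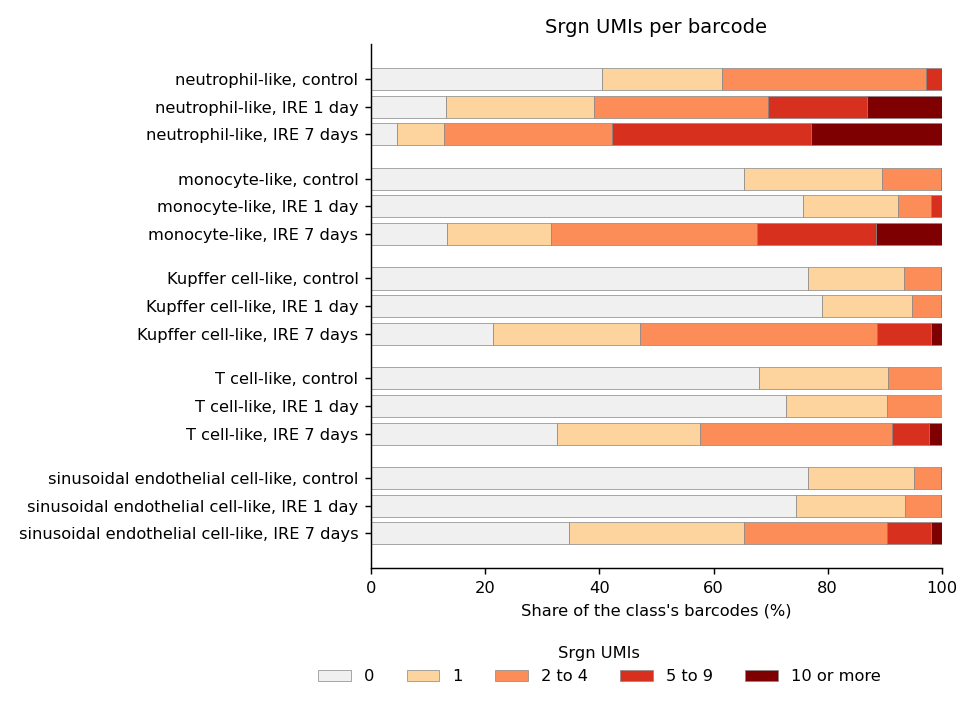
Share of barcodes (horizontal axis, percent) with 0, 1, 2 to 4, 5 to 9 and 10 or more Srgn UMIs in 5 classes, with 1 bar for each library and darker shades for more UMIs. The share without a Srgn UMI in neutrophil-like barcodes was 40.4% in control and 4.58% on day 7, and in sinusoidal endothelial cell-like barcodes 76.6% and 34.6%.

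Srgn was also abundant in barcodes that were not kept. Among barcodes with fewer than 200 genes, it made up 525 CPM in control (493 to 557), 389 on day 1 (365 to 415) and 13506 on day 7 (13322 to 13692). On either side of the minimum, barcodes with 150 to 199 genes held 633 CPM in control, 426 on day 1 and 13074 on day 7, and those with 200 to 299 genes held 583, 493 and 11070. On day 7 the level was highest in barcodes with 100 to 149 genes, at 14152 CPM, and lowest in the 30 barcodes with 1000 genes or more, at 3048 (2639 to 3502). Within neutrophil-like barcodes on day 7 it was 14661 CPM at 200 to 299 genes, 12751 at 300 to 499 and 8553 at 500 to 999, although the mean count per barcode was 5.85, 7.85 and 9.22 in the same order. Below the minimum, 1678 of the 3701 day 7 barcodes with 100 to 149 genes passed the neutrophil gate, with 16644 CPM of Srgn. Of the 3011 with 150 to 199 genes 1325 did, with 15783 CPM. In control these numbers were 142 of 2120, with 2656 CPM, and 151 of 3123, with 2854 CPM.

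**Figure D3:**
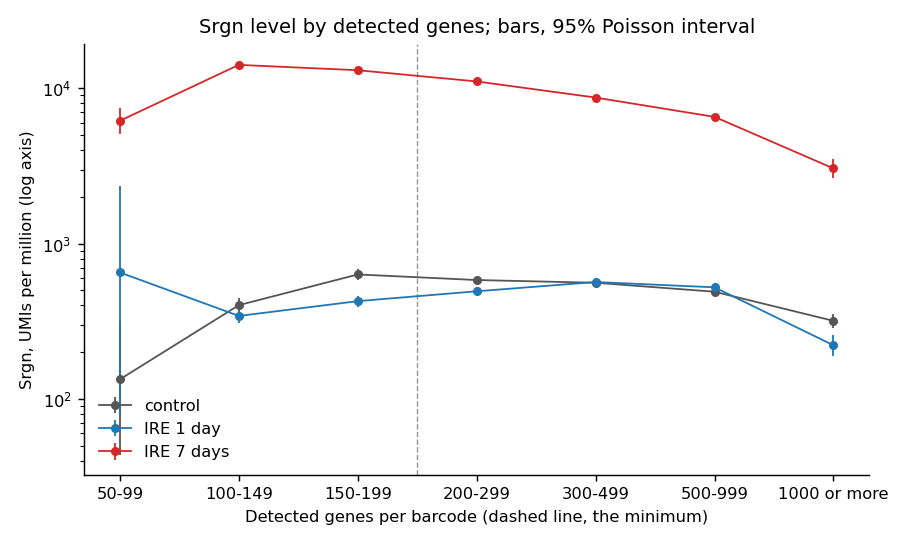
Srgn in CPM (vertical log axis) by the number of detected genes per barcode (horizontal axis), for control (grey), day 1 (blue) and day 7 (red) after IRE, with 95% Poisson intervals and a dashed line at the minimum of 200 genes. From 100 genes per barcode upwards the red line declines from 14152 to 3048, and it lies above both other lines throughout.

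RNA freed from broken cells can give UMIs in barcodes of other cells, and S100a8 serves as a measure of it, because it encodes a cytosolic protein of neutrophils and some monocytes and was not used in the gates. On day 7 S100a8 stood at 53660 CPM in neutrophil-like barcodes, but also at 8626 in T cell-like, 6661 in sinusoidal endothelial cell-like and 6079 in Kupffer cell-like barcodes. In control the last 3 classes held 606, 891 and 854 CPM. Srgn and S100a8 were therefore both higher on day 7 in classes that are not known to make S100a8.

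The ratio of Srgn to S100a8 UMIs on day 7 was 0.246 in neutrophil-like barcodes (0.240 to 0.252) and 0.302 in barcodes under 200 genes. It was higher in T cell-like (0.431, interval 0.357 to 0.519), Kupffer cell-like (0.485, 0.425 to 0.552) and sinusoidal endothelial cell-like barcodes (0.521, 0.404 to 0.669), and higher again in monocyte-like (0.734) and Arg1 and Ccl2 macrophage-like barcodes (1.13). At the ratio of the barcodes under 200 genes, the S100a8 in T cell-like barcodes goes with 2609 CPM of Srgn, which leaves 1111 of 3719. The same sum leaves 1109 of 2947 in Kupffer cell-like barcodes and 1458 of 3472 in sinusoidal endothelial cell-like barcodes. With the same step in control, the ratio on day 7 to control became 2.20 in T cell-like, 4.50 in Kupffer cell-like, 4.13 in sinusoidal endothelial cell-like and 4.19 in Gpnmb and Trem2 macrophage-like barcodes. At the ratio of all kept barcodes, 0.444, the level left on day 7 was -109 CPM in T cell-like, 249 in Kupffer cell-like and 516 in sinusoidal endothelial cell-like barcodes, and the ratio to control was 2.28 in Kupffer cell-like and 2.46 in sinusoidal endothelial cell-like barcodes. Nothing was thus left in T cell-like barcodes at that ratio on day 7, against 408 CPM in control, and the part of free RNA in the higher Srgn of these classes was not tested further. On day 7 the steps took off 0.302 or 0.444 Srgn per S100a8, more than the 0.246 of neutrophil-like barcodes. In control they took off 0.118 or 0.279, against 0.0373. Many barcodes under 200 genes also passed the neutrophil gate on day 7. The steps therefore cannot separate free neutrophil RNA from the Srgn of other cells, and the values left are not corrected levels. In neutrophil-like barcodes S100a8 stood at 50580 CPM in control, 29713 on day 1 and 53660 on day 7, and the ratio of Srgn to S100a8 was 0.0373 in control (0.0330 to 0.0421) and 0.218 on day 1 (0.171 to 0.274).

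Epithelial and stromal barcodes on day 7 were too few to settle a background level. The 8 cholangiocyte-like and 2 mesenchymal cell-like barcodes held 3 Srgn UMIs in all, or 276 CPM (56.8 to 805), and the cholangiocyte-like barcodes held 33 S100a8 UMIs. Their ratio of Srgn to S100a8 was 0.0909 (0.0178 to 0.290). Against the 10 barcodes, Srgn was 13.5-fold higher in T cell-like barcodes (4.54 to 66.1) and 47.9-fold higher in neutrophil-like barcodes (16.4 to 232).

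**Figure D4:**
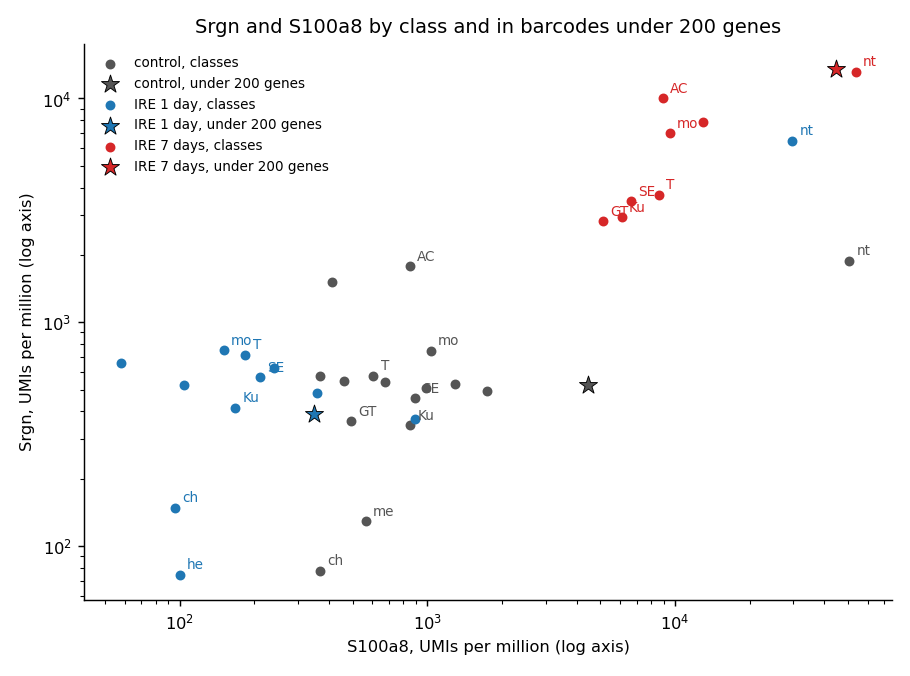
Srgn against S100a8, both in CPM on log axes, for each class with at least 20 barcodes (circles) and for barcodes under 200 genes (stars) in control (grey), day 1 (blue) and day 7 (red) after IRE. Letters mark neutrophil (nt), monocyte (mo), Arg1 and Ccl2 macrophage (AC), Gpnmb and Trem2 macrophage (GT), Kupffer (Ku), T, sinusoidal endothelial (SE), mesenchymal (me), cholangiocyte (ch) and hepatocyte-like (he) barcodes. On day 7 every class lies at or above 5131 S100a8 CPM, and the star, at 44662, lies near the neutrophil-like barcodes.

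Within neutrophil-like barcodes Srgn varied with other transcripts. In control, barcodes with Camp, Ltf or Ngp, which encode granule proteins made early in neutrophil maturation, held 798 CPM of Srgn (526 to 1161) in 45 barcodes, against 2215 (1949 to 2508) in the 168 others, a ratio of 0.360 (0.233 to 0.537). On day 7 this difference was not seen, with 13163 CPM in 210 barcodes and 13202 in 1167, a ratio of 0.997 (0.944 to 1.05). Camp, Ltf and Ngp were gate markers of neutrophils, so this split is partly set by the gate. Barcodes with the chemokine transcripts Cxcl3 or Ccl4 on day 7 held 14735 CPM in 878 barcodes, against 10041 in 499 others, a ratio of 1.47 (1.40 to 1.54). Their median depth was 461 UMIs against 401. Barcodes with at least 2 interferon-induced transcripts had a ratio of 1.03 to the others (0.968 to 1.09).

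Among monocyte-like barcodes, those with Arg1, Ccl2 or Ccl7 held more Srgn, with a ratio to the others of 1.44 in control (1.08 to 1.87) and 1.497 on day 7 (1.42 to 1.58). Their median depth was 736 UMIs against 563 in control and 567 against 469 on day 7. Arg1, Ccl2 and Ccl7 were gate markers of the Arg1 and Ccl2 macrophage class, so this split is partly set by the gate. In T cell-like barcodes, transcripts of granzymes or perforin, the cytotoxic proteins that serglycin holds in granules, did not go with a higher level beyond counting error. The ratio of barcodes with such transcripts to the others was 0.972 in control (0.699 to 1.33), 1.42 on day 1 (0.771 to 2.49) and 1.01 on day 7 (0.728 to 1.43). For Cd8a or Cd8b1, the ratio was 0.727 in control (0.501 to 1.03) and 1.28 on day 7 (0.908 to 1.82).

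The other genes of the pathway were counted over all kept barcodes, where a gene was called when it was past 2-fold, against the backgrounds of 8.79% higher and 21.8% lower on day 7 given above. Most other proteoglycan core proteins went opposite to Srgn. Of 22 with enough UMIs, 16 were lower on day 7 and 4 higher, with a median ratio of 0.245 or, with the 2 genes without a UMI on day 7 set to 3 counts, 0.194. Dcn, the collagen-binding proteoglycan decorin, went from 418 CPM in control to 25.0 on day 1 and 3.60 on day 7, and mesenchymal cell-like barcodes, which held 2895 of its 3350 UMIs in control, numbered 479, 13 and 2. Dcn was a gate marker of mesenchymal cells, so this share is partly set by the gate. Lum and Aspn, of the same family, had no UMI on day 7. The 4 higher ones were Vcan (versican, ratio 5.604, interval 4.94 to 6.36), the syndecans Sdc4 (3.48, 3.18 to 3.81) and Sdc1 (2.72, 2.07 to 3.57), and the hyaluronan receptor Cd44 (3.12, 2.93 to 3.33). Vcan was a gate marker of monocytes, and its level was highest in monocyte-like barcodes both in control and on day 7.

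The enzymes that build the chains were counted against the same backgrounds. Of 5 enzymes of the linker that joins each chain to serine, 1 was past 2-fold on day 7, namely Xylt2, a xylosyltransferase that starts the linker, which was lower (0.461, 0.253 to 0.789). The other xylosyltransferase, Xylt1, had too few UMIs to be counted, with 9 in control and 15 on day 7, a ratio of 4.37 (1.79 to 11.3). Of 5 polymerases of chondroitin chains, 2 were lower, Chpf and Csgalnact1. Of 6 enzymes that sulfate or modify these chains, 1 was higher and 2 lower. The higher one was the chondroitin 4-O-sulfotransferase Chst11 (5.07, 3.23 to 8.09, from 3.87 to 19.6 CPM), and Chst15 and Ust were lower. Of 10 heparan and heparin enzymes, 1 was higher, the N-sulfotransferase Ndst1 (2.22, 1.73 to 2.83), and 5 were lower. Of 6 genes that supply sulfate, Papss2, which makes the activated sulfate donor, was higher (3.13, 2.31 to 4.25) and none was lower.

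The proteins that serglycin is known to hold in granules went in both directions. Of 13 with enough UMIs, 5 were higher on day 7 and 4 lower, with a median ratio of 0.966. The higher ones were the gelatinase Mmp9 (13.6, 11.7 to 15.9), the chemokines Ccl3 (10.9, 9.79 to 12.1), Ppbp (26.3, 17.3 to 41.9) and Pf4 (2.92, 2.78 to 3.08), and Tnf (2.79, 2.29 to 3.39). The lower ones were the mast cell and basophil proteases Cma1, Cpa3 and Mcpt8, and granzyme A, Gzma (0.258, 0.224 to 0.295). Natural killer cell-like barcodes, which held 1076 of the 2329 Gzma UMIs in control, numbered 245 in control and 18 on day 7. Gzma was a gate marker of natural killer cells, so this share is partly set by the gate, as is its level in T cell-like barcodes. Within T cell-like barcodes Gzma was higher on day 7 than in control (1.63, 1.20 to 2.19), as were granzyme B, Gzmb (6.12, 4.57 to 8.17), and perforin, Prf1 (22.1, 8.32 to 68.5, from 6 UMIs in control). Within neutrophil-like barcodes, Mmp9, which was a gate marker, went from 663 to 1085 CPM, a ratio of 1.64 (1.32 to 2.04), and Ccl3 from 27.4 to 962, a ratio of 35.2 (13.7 to 130), from 4 UMIs in control.

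Of 8 genes for the release of granules, 3 were higher on day 7 and none lower, with a median ratio of 1.48. They were Stx11 (8.48, 6.62 to 10.9), Lyst (3.50, 2.95 to 4.14) and Snap23 (2.17, 1.92 to 2.44), which act in the fusion and size of granules. Of 13 genes that break down the chains, none was higher and 5 were lower, among them the sulfatase Arsb (0.0754, 0.0203 to 0.197). On day 1, where 12.2% of all genes were higher and 5.86% lower, 1 of 13 granule proteins was higher and 7 lower, and 4 of 23 core proteins were higher and 9 lower. Of 7 enzymes that sulfate or modify chondroitin 3 were higher, of 10 heparan and heparin enzymes 2 were higher, and in neither group was a gene lower. Of 5 chondroitin polymerases 1 was higher and 1 lower, of 13 breakdown genes 2 were higher and 2 lower, and of 6 sulfate supply genes 1 was higher. None of 8 release genes and none of 5 linker enzymes was past 2-fold on day 1.

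**Figure D5:**
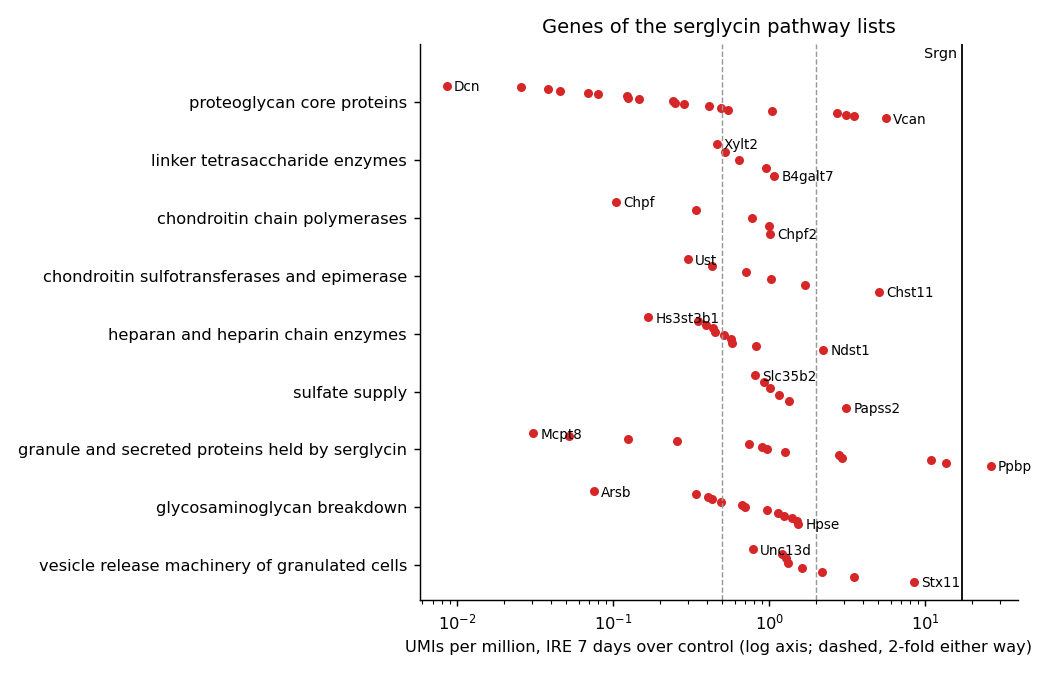
Ratio of CPM on day 7 after IRE to control (horizontal log axis) for each gene of the pathway lists with at least 50 UMIs, with dashed lines at 2-fold either way and a solid line at the ratio of Srgn, 17.3. Lum and Aspn, without a UMI on day 7, are not drawn, and of the drawn genes Ppbp, at 26.3, lies beyond Srgn.

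The genes with the class pattern most like that of Srgn were found by Pearson correlation of log2(CPM + 10) over 34 points, each a class in a library, among 3777 genes. Gate markers were left out, so none of them could be listed. The points of 1 library share its depth and free RNA, so the values are a description. The 10 most alike were Smox (r = 0.85), Ccr1 (0.84), Cxcl3 (0.84), Slfn4 (0.83), Gp49a (0.82), Cxcl2 (0.81), AA467197 (0.80), Gm5483 (0.80), Trem1 (0.80) and Fxyd5 (0.79). Smox encodes spermine oxidase, Ccr1 a chemokine receptor of myeloid cells, Cxcl2 and Cxcl3 attractants of neutrophils, and Trem1 an activating receptor of neutrophils and monocytes. Their level over the kept barcodes was 3.81-fold (Fxyd5) to 430-fold (Cxcl3) higher on day 7 than in control. Over the 15 control points alone, their correlation with Srgn lay between 0.31 (Smox) and 0.71 (AA467197), and none of the 10 was among the 10 most alike there. None was among them over the 12 points of day 1 alone, and 3 were over the 7 points of day 7 alone. The control list was led by Ncf1 (0.84), a subunit of the oxidase of phagocytes, and Pim1 (0.82), a kinase.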

How the data were processed

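Each condition was represented by 1 Drop-seq library. The authors aligned reads with STAR (2.5.2a in the submitters' processing notes, which name the build hg19, although the gene symbols are those of mouse) and counted UMIs from sense reads for each gene in each barcode, per the file headers. They deposited these counts without normalization. The headers name a minimum of 200 genes, yet the files hold smaller barcodes. UMIs were summed per class and library and divided by all UMIs of that class and library. Sums have exact Poisson intervals, shares exact binomial (Clopper-Pearson) and ratios conditional binomial intervals, at 95%. No doublet caller was run. Instead the 5% of barcodes with the most UMIs were left out as an alternative. Older symbols were matched through RefSeq (GRCm38.p6), while Ighd, Fcn3 and Vamp7 were not matched. Likeness left out the gate markers and required 500 UMIs per gene, and 20 barcodes and 10000 UMIs per point. Named were list genes past 2-fold or with the most UMIs, and the 10 genes most like Srgn. The gene, the lists and the markers were chosen with earlier results of these data known. The S100a8 subtractions, the removal of shared barcodes and the weighting without unassigned barcodes were chosen after seeing the data. The likeness, ratio interval and thinning steps were tested on simulated data. Python 3.11.15 with numpy 2.4.6, scipy 1.17.1, pandas 2.3.3 and matplotlib 3.10.9 was used.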

Additional observations from a re-analysis of the deposited data

Results flagged for a closer look

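Srgn made up 13506 CPM (13322 to 13692) in the 6842 barcodes with fewer than 200 genes on day 7, which the main comparison of classes left out. It stood out because barcodes of that size held 525 CPM in control, a ratio of 25.7 (24.2 to 27.4), against 17.3 in the kept barcodes. S100a8 moved with it, at 44662 CPM in these barcodes on day 7 and 4456 in control. Many of these barcodes passed the neutrophil gate on day 7, namely 1678 of 3701 with 100 to 149 genes and 1325 of 3011 with 150 to 199. In control 142 of 2120 and 151 of 3123 did. The parts of S100a8 and of the neutrophil-like barcodes in the result were not tested.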

How the results depend on the processing

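Each condition was 1 library, so the alternatives change the barcodes, the UMIs or the gate, and no replicate could be left out. No paired analysis was possible because each condition is 1 library. On day 7, 78 of 78 class ratios under the alternatives were above 1, from 2.20 to 9.81. The S100a8 subtraction was not among these alternatives for neutrophil-like, monocyte-like and Arg1 and Ccl2 macrophage-like barcodes. In the other classes, T cell-like barcodes gave no ratio with the subtraction at the ratio of all kept barcodes. There -109 CPM were left on day 7 and 408 in control. On day 7 that subtraction used 0.302 or 0.444 Srgn UMIs per S100a8 UMI, against 0.246 in neutrophil-like barcodes. In control it used 0.118 or 0.279, against 0.0373. On day 1, 77 of 105 class ratios were above 1, from 0.452 to 3.76.

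The library ratio on day 7 was 20.2 with every deposited barcode, 15.8 with at least 300 genes, 14.3 with at least 500, 14.4 without mitochondrial UMIs, 14.3 without mitochondrial and hepatocyte secretory UMIs, and 16.3 as a mean over barcodes. The ratio weighted by control class shares was 12.2 with every barcode, 9.44 with at least 300 genes, 8.998 with at least 500, 8.19 and 8.16 without these UMIs, 9.46 with at most 20% mitochondrial UMIs, 12.4 with the stricter gate and 8.14 with the gated classes alone. No weighted ratio was computed after the S100a8 subtraction.

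On day 1 the library ratio was 0.900 with every barcode, 1.03 without mitochondrial and hepatocyte secretory UMIs and 1.02 with at most 20% mitochondrial UMIs, and the weighted ratio was 1.10 with at least 500 genes, 1.07 with the stricter gate and 1.39 with the gated classes alone. After the S100a8 subtraction, the ratio on day 1 was 0.923 in Kupffer cell-like and 0.939 in sinusoidal endothelial cell-like barcodes, and 0.993 in the latter at the ratio of all kept barcodes, below 1. On day 1 that subtraction used 1.12 or 1.705 Srgn UMIs per S100a8 UMI, against 0.218 in neutrophil-like barcodes. The cause of the lower ratios was not tested.

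With a minimum of 10 UMIs per gene, 2085 genes were at least 2-fold higher and 1202 lower on day 1, and 3881 lower on day 7. With 200 UMIs these counts were 746, 338 and 841. Of the 10 genes most like Srgn, 3 were kept with a pseudocount of 1, 7 with 50 and 9 with at least 50 UMIs per gene, and 0, 0 and 3 with the points of control, day 1 or day 7 alone. Depth limits the small classes most, such as the 23 neutrophil-like barcodes on day 1.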
